A study of Oryza sativa with 9 samples.

Results

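*SPL* genes encode SQUAMOSA promoter-binding protein-like transcription factors, a plant family that binds GTAC-containing promoter elements through its SBP domain. The 9 rice genes described here were taken by identifier from a table of 37863 genes: *OsSPL2* (Os01g0922600), *OsSPL3* (Os02g0139400), *OsSPL4* (Os02g0174100), *OsSPL7* (Os04g0551500), *OsSPL12* (Os06g0703500), *OsSPL13* (Os07g0505200), *OsSPL14* (Os08g0509600), *OsSPL16* (Os08g0531600) and *OsSPL18* (Os09g0507100). The names follow the usual rice numbering, and 7 of the 9 names lie on the chromosome given by their identifier in the RefSeq gene table. Of the others, *OsSPL3* has no entry there under its name. The 1 entry there with the name *OsSPL18* is not on chromosome 9, which its identifier gives. The genes were chosen with earlier results of these libraries known, and *OsSPL13*, *OsSPL16* and *OsSPL18* were selected on their measured FPKM. *OsSPL13* had been seen to be highest in the knockout line and lowest in the overexpression line, and the question was whether its relatives followed that order. *OsSPL13*, *OsSPL16* and *OsSPL18* are therefore described by these levels without a test, and the other 6 genes were open to one.

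In rice, the transcripts of these genes carry a site for the microRNA miR156, which holds SPL levels down in young shoots. As miR156 declines with age, the SPL factors promote the change to flowering and shape tillers, panicle branches and spikelet hulls. *OsSPL13*, *OsSPL16* and *OsSPL18* are known for grain size, *OsSPL14* and *OsSPL7* for tiller and panicle branching, and *OsSPL3* and *OsSPL12* have been studied in crown roots and seed dormancy.

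RNA-seq gave transcript levels in panicles collected before heading (before anthesis in the methods) from 3 genotypes of the *japonica* variety Zhonghua11, with 3 libraries each. ZH11-KO1 (ZH11-Cas9-1 in the study) is an *OsGSE9* knockout made with CRISPR/Cas9, with Cas9 driven by the *ubiquitin* promoter and guide RNAs by the *U3b* promoter. ZH11-OE1 (ZH11-OE-1) carries the coding sequence of *OsGSE9*, a de novo grain shape gene, under the *ubiquitin* promoter, which acts in most tissues. ZH11 is the untransformed wild type. The libraries of a genotype are described as independent repeats. Each transgenic genotype was 1 line made through *Agrobacterium*, so effects of that line and effects of *OsGSE9* cannot be told apart. Levels are FPKM, read counts scaled by gene length and library size. A whole panicle holds many cell types, and in such samples fewer cells of a type and less RNA per cell cannot be told apart.

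Between 14227327 and 16405688 reads were assigned to genes per library, as recovered from the steps of the FPKM values. *OsGSE9* itself was not checked, since no row carries its name or the locus identifier of the study. Tissue markers were followed by identifiers listed from general knowledge, which no table used here names. The 6 identifiers for spikelet and floral identity summed to between 1004 and 1070 FPKM in ZH11-KO1, between 1066 and 1260 FPKM in ZH11-OE1 and between 1085 and 1133 FPKM in ZH11. One of the 6 was lower in ZH11-KO1 than in ZH11 (adjusted p under 0.05 from limma), against 3.59% of all tested genes, but not without any 1 of the ZH11-KO1 libraries or without ZH11 replicate 3, and it was lower in ZH11-KO1 than in ZH11-OE1 too. Of the 7 identifiers for branch and spikelet meristems, 2 had a mean of at least 1 FPKM in each genotype and the others were near or at 0. Of the 10 tapetum and anther identifiers, 5 were higher in ZH11-KO1 than in ZH11, against 5% of all tested genes. In ZH11-OE1, 4 of the 10 were higher than in ZH11 and 1 lower, against 3.76% and 10% of all tested genes (limma). The 5 in ZH11-KO1 became 1 with no filter on low values or in a fit of those 2 groups alone, and 2 without the trended spread. With 1 library left out, 1 to 5 of them were higher in ZH11-KO1 and 3 or 4 in ZH11-OE1: 1 was higher in ZH11-KO1 without ZH11-KO1 replicate 1 or 2, ZH11-OE1 replicate 1 or ZH11 replicate 3, and 2 without ZH11-KO1 replicate 3 or ZH11 replicate 1. The lower call in ZH11-OE1 was lost without ZH11-OE1 replicate 2 or 3. Their summed level ran from 3495 to 5086 FPKM in ZH11-KO1, from 2970 to 3639 FPKM in ZH11-OE1 and from 3223 to 5152 FPKM in ZH11, and all 10 averaged at least 1 FPKM in each genotype. Most of this sum came from 1 identifier, at mean levels of 3320 FPKM in ZH11-KO1, 2405 FPKM in ZH11-OE1 and 3164 FPKM in ZH11. That identifier was called in neither line against ZH11, so the sums do not show the rises of the called genes. The 6 leaf photosynthesis identifiers summed to between 5304 and 5891 FPKM in ZH11-KO1, between 2952 and 3700 FPKM in ZH11-OE1 and between 4941 and 6937 FPKM in ZH11. Nearly all of these sums came from 2 identifiers. Their means were 3661 and 1856 FPKM in ZH11-KO1, 2253 and 936 FPKM in ZH11-OE1, and 3835 and 1666 FPKM in ZH11. In ZH11-OE1 vs ZH11, these 2 of the 6 fell, against 10% of all tested genes, but 1 without ZH11-OE1 replicate 2, without ZH11 replicate 1 or with no filter, and 3 without ZH11-OE1 replicate 3. In ZH11-KO1 vs ZH11-OE1, 4 of the 6 were higher, against 15.8% of all tested genes, but 1 without ZH11-KO1 replicate 2 or ZH11-OE1 replicate 2. The part of these shifts in the SPL values was not tested.

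Over all 9 libraries, the genes fell into an abundant and a scarce set. *OsSPL12*, *OsSPL18*, *OsSPL3*, *OsSPL2* and *OsSPL16* had mean levels of 33.2, 33.0, 32.9, 31.8 and 28.3 FPKM, in that order. Neighbours in this order overlapped in their ranges, so their ranks are not separated. *OsSPL14*, *OsSPL4* and *OsSPL13* followed with mean levels of 6.02, 5.20 and 3.46 FPKM. The lowest *OsSPL16* library, at 19.7 FPKM, lay above the highest *OsSPL14* library, at 7.73 FPKM, whereas the ranges of *OsSPL14*, *OsSPL4* and *OsSPL13* overlapped. *OsSPL7* was last with 0.0890 FPKM. The mean of *OsSPL12* lay above that of 86.3% of the 32208 genes with reads, that of *OsSPL14* above 55.6% and that of *OsSPL13* above 47.0%.

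**Figure D1:**
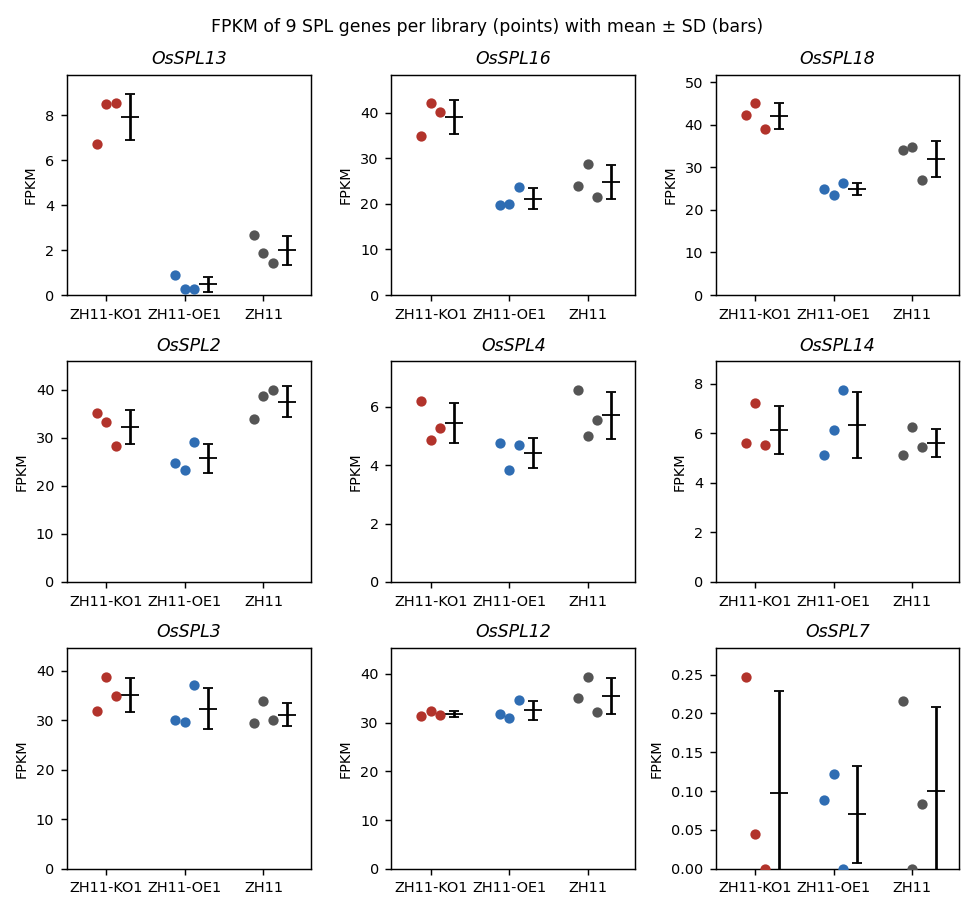
Transcript levels in FPKM (y axis, each panel with its own scale starting at 0) of the 9 SPL genes in ZH11-KO1, ZH11-OE1 and ZH11 (x axis); each point is 1 library and the bars give the mean ± SD of 3 libraries, the lower bars of *OsSPL7* being clipped at 0. The *OsSPL13* points lie between 6.72 and 8.52 FPKM in ZH11-KO1, between 0.256 and 0.877 FPKM in ZH11-OE1 and between 1.43 and 2.68 FPKM in ZH11, whereas the 3 groups of *OsSPL14* overlap.

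*OsSPL13*, known as *GLW7*, promotes grain length through cell size in the spikelet hull. It had 6.72, 8.50 and 8.52 FPKM in ZH11-KO1, 0.877, 0.256 and 0.290 FPKM in ZH11-OE1, and 2.68, 1.85 and 1.43 FPKM in ZH11. The 3 groups did not overlap, and each ZH11-KO1 library was above each ZH11 library, which in turn was above each ZH11-OE1 library. For comparison, ZH11-KO1 lay above ZH11 with no overlap in 14.2% of all 21780 tested genes and above ZH11-OE1 in 25.1%, and ZH11-OE1 lay below ZH11 in 21.2%. Behind these levels stood 181, 212 and 204 reads in ZH11-KO1, 22, 7 and 8 reads in ZH11-OE1, and 69, 47 and 38 reads in ZH11. The ZH11-OE1 levels therefore rest on few reads: at 7 reads the exact 95% Poisson interval of the level ran from 0.103 to 0.528 FPKM, which covers counting error only. ZH11-OE1 replicate 1, at 0.877 FPKM, stood above the other libraries of its line, and its interval reached 1.33 FPKM, above the lower bound of 1.02 FPKM for the lowest ZH11 library.

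The mean level of *OsSPL13* in ZH11-KO1 was 3.98 times that in ZH11, at 7.91 ± 1.04 FPKM against 1.99 ± 0.637 FPKM (SD, n = 3 each). In ZH11-OE1 the mean was 0.474 ± 0.349 FPKM (SD, n = 3), or 0.238 times that of ZH11. On the log2(FPKM + 1) scale the difference was 1.59 (SE 0.20) in ZH11-KO1 vs ZH11, -1.02 (SE 0.20) in ZH11-OE1 vs ZH11 and 2.61 (SE 0.20) in ZH11-KO1 vs ZH11-OE1. Adding 1 FPKM shrinks the fold of a gene this low. With limma's voom on the recovered reads the log2 fold changes were 2.03 (SE 0.26) in ZH11-KO1 vs ZH11 and -2.18 (SE 0.46) in ZH11-OE1 vs ZH11, and 4.21 (SE 0.43) between the lines. On the read scale the rise and the decrease lay close in size, which was not tested, whereas on the FPKM + 1 scale the decrease was the smaller.

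*OsSPL16*, known as *GW8*, promotes cell division and grain width. Its levels were 34.8, 42.1 and 40.1 FPKM in ZH11-KO1, 19.7, 20.05 and 23.8 FPKM in ZH11-OE1, and 24.0, 28.8 and 21.6 FPKM in ZH11. All ZH11-KO1 libraries were above all others, but ZH11-OE1 and ZH11 overlapped, since ZH11-OE1 replicate 3 was above ZH11 replicate 3. The log2 fold change was 0.64 (SE 0.12) in ZH11-KO1 vs ZH11 and -0.21 (SE 0.12) in ZH11-OE1 vs ZH11.

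*OsSPL18*, a close paralog of *OsSPL16* that acts on grain weight and grain number, had 42.2, 45.1 and 39.1 FPKM in ZH11-KO1, 24.9, 23.5 and 26.4 FPKM in ZH11-OE1, and 34.2, 34.8 and 27.1 FPKM in ZH11. Its 3 groups did not overlap and stood in the order of *OsSPL13*. The gap on the lower side was narrow, with the highest ZH11-OE1 library at 26.4 FPKM and the lowest ZH11 library, replicate 3, at 27.1 FPKM. By counting error these 2 libraries were not separated, at 24.4 to 28.6 FPKM in ZH11-OE1 replicate 3 and 25.0 to 29.3 FPKM in ZH11 replicate 3 (exact 95% Poisson intervals). The log2 fold change was 0.39 (SE 0.11) in ZH11-KO1 vs ZH11 and -0.34 (SE 0.11) in ZH11-OE1 vs ZH11. Mean levels were 42.1 ± 2.99 FPKM in ZH11-KO1, 24.9 ± 1.46 FPKM in ZH11-OE1 and 32.0 ± 4.29 FPKM in ZH11 (SD, n = 3 each). How reads shared between *OsSPL16* and *OsSPL18* were counted is unknown, and both levels are uncertain to that extent.

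The differences were much smaller than those of *OsSPL13*: the ZH11-KO1 mean was 1.57 times that of ZH11 for *OsSPL16* and 1.32 times for *OsSPL18*. In reads, *OsSPL16* had 942 to 1054 in ZH11-KO1, 497 to 659 in ZH11-OE1 and 573 to 735 in ZH11, many more than *OsSPL13*. ZH11 replicate 3 was the lowest wild-type library for *OsSPL13*, *OsSPL16* and *OsSPL18* alike. Without it, the log2 fold changes in ZH11-KO1 vs ZH11 were 1.45 for *OsSPL13*, 0.55 for *OsSPL16* and 0.28 for *OsSPL18*, and *OsSPL16* then separated in the full order too, as it did without ZH11-OE1 replicate 3.

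*OsSPL4*, for which a restraining effect on grain size has been described, did not follow the order. It had 6.21, 4.86 and 5.28 FPKM in ZH11-KO1, 4.77, 3.83 and 4.68 FPKM in ZH11-OE1, and 6.58, 5.02 and 5.54 FPKM in ZH11. The ZH11-OE1 libraries were all below the others, whereas ZH11-KO1 and ZH11 overlapped over most of their range. By counting error, ZH11-OE1 replicate 1 and ZH11-KO1 replicate 2 were not separated. Their exact 95% Poisson intervals ran from 4.14 to 5.46 FPKM and from 4.23 to 5.56 FPKM. The log2 fold change of -0.30 (SE 0.13, 95% interval -0.60 to -0.007) in ZH11-OE1 vs ZH11 did not pass the test (limma, unadjusted p = 0.0459, adjusted p = 0.156). In ZH11-KO1 vs ZH11 it was -0.06 (SE 0.13, 95% interval -0.35 to 0.24, adjusted p = 0.834).

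*OsSPL14*, known as *IPA1*, limits tillers and promotes panicle branching. Its levels were 5.61, 7.23 and 5.54 FPKM in ZH11-KO1, 5.12, 6.14 and 7.73 FPKM in ZH11-OE1, and 5.12, 6.23 and 5.44 FPKM in ZH11. The groups overlapped throughout, and the 2 highest libraries belonged to different lines. The log2 fold change was 0.11 (95% interval -0.23 to 0.44, adjusted p = 0.709 from limma) in ZH11-KO1 vs ZH11 and 0.14 (95% interval -0.20 to 0.48, adjusted p = 0.568) in ZH11-OE1 vs ZH11. The gene had 124 to 206 reads per library. With 3 libraries per genotype, differences within these intervals are not excluded, and they are not a limit of detection.

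*OsSPL7*, which acts with *OsSPL14* on branching, was barely detected. It had 0.247, 0.0445 and 0 FPKM in ZH11-KO1, 0.0884, 0.122 and 0 FPKM in ZH11-OE1, and 0.216, 0 and 0.0837 FPKM in ZH11. These levels stand for 0 to 6 reads, and each genotype had a library with 0 reads, which allows a level of up to 0.139 FPKM in ZH11-KO1 replicate 3, 0.121 FPKM in ZH11-OE1 replicate 3 and 0.131 FPKM in ZH11 replicate 2, taking 3 reads as the limit for a count of 0. This is a one-sided limit and lies below the upper end of a two-sided 95% interval. *OsSPL7* fell under the minimum mean of 1 FPKM and was not fitted, and no difference was detectable at this depth.

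*OsSPL2*, like *OsSPL4*, was lower in every ZH11-OE1 library than in any ZH11 library, as were 21.2% of all tested genes. Of the genes open to a test, *OsSPL2* alone passed in ZH11-OE1 vs ZH11, where 10% of all tested genes were called lower. It had 35.1, 33.1 and 28.2 FPKM in ZH11-KO1, 24.7, 23.4 and 29.0 FPKM in ZH11-OE1, and 33.9, 38.7 and 39.9 FPKM in ZH11. No ZH11-OE1 library reached a ZH11 library, while ZH11-KO1 lay between them and overlapped both. In ZH11-OE1 vs ZH11 the log2 fold change was -0.53 (adjusted p = 0.0151 from limma, SE 0.11, 95% interval -0.78 to -0.28), and its mean FPKM was 0.685 times that of ZH11. In ZH11-KO1 vs ZH11 it was -0.22 (adjusted p = 0.260 from limma, SE 0.11), so the sign was the same as in ZH11-OE1 and opposite to that of *OsSPL13*. The 2 lines differed by 0.31 (SE 0.11, 95% interval 0.06 to 0.56), which did not pass the test (adjusted p = 0.0669 from limma). The call in ZH11-OE1 vs ZH11 depended on 1 library: without ZH11-OE1 replicate 2 the log2 fold change was -0.47 and the adjusted p 0.0642 from limma. The difference between the lines passed without ZH11-KO1 replicate 3 (0.40, adjusted p = 0.0359 from limma) and without ZH11-OE1 replicate 3 (0.40, adjusted p = 0.0426).

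*OsSPL3* and *OsSPL12* are close paralogs of like abundance in these panicles. *OsSPL3* had 31.8, 38.7 and 34.9 FPKM in ZH11-KO1, 30.1, 29.7 and 37.1 FPKM in ZH11-OE1, and 29.6, 33.9 and 30.0 FPKM in ZH11. *OsSPL12* had 31.3, 32.3 and 31.6 FPKM in ZH11-KO1, 31.7, 31.0 and 34.7 FPKM in ZH11-OE1, and 34.9, 39.3 and 32.1 FPKM in ZH11. Both genes overlapped between every pair of genotypes. For *OsSPL3* the log2 fold change was 0.17 (95% interval -0.08 to 0.41, adjusted p = 0.375 from limma) in ZH11-KO1 vs ZH11 and 0.05 (95% interval -0.20 to 0.29, adjusted p = 0.808) in ZH11-OE1 vs ZH11. For *OsSPL12* it was -0.15 (95% interval -0.35 to 0.05, adjusted p = 0.326 from limma) in ZH11-KO1 vs ZH11 and -0.12 (95% interval -0.32 to 0.08, adjusted p = 0.397) in ZH11-OE1 vs ZH11. With 1239 to 1797 reads per library for these genes, the intervals reached no further from 0 than 0.41 on the log2 scale. Differences within these intervals are not excluded. As for the *OsSPL16* pair, the share of reads that fit both paralogs is unknown.

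**Figure D2:**
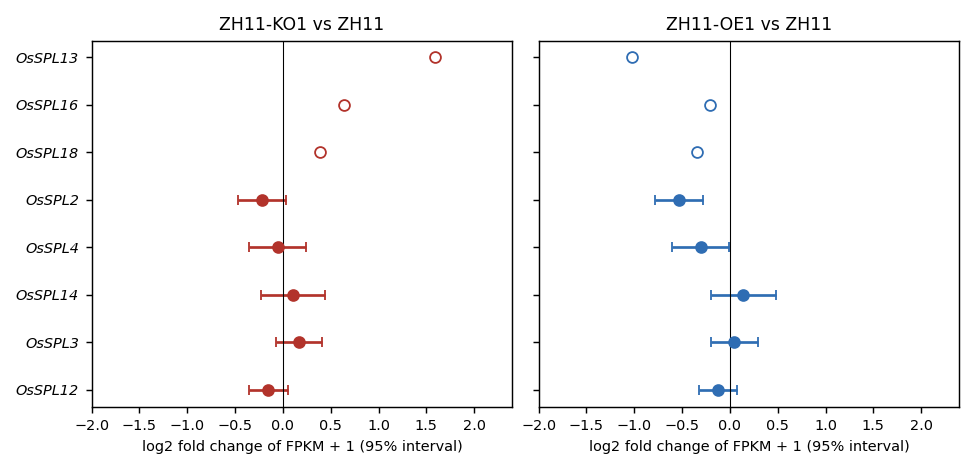
Log2 fold change on the FPKM + 1 scale (x axis) of the 8 fitted SPL genes (y axis) in ZH11-KO1 vs ZH11 on the left and ZH11-OE1 vs ZH11 on the right; points are limma estimates from 3 libraries per group, with 95% intervals (lines) for the 5 tested genes, and open points without lines mark the 3 genes described without a test. *OsSPL13* lies at 1.59 on the left and -1.02 on the right, and *OsSPL2* lies below 0 on both sides, at -0.22 and -0.53.

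Of the 5 fitted genes open to a test, 1 was called in ZH11-OE1 vs ZH11 (*OsSPL2*, lower) and none in ZH11-KO1 vs ZH11 with limma, where none had an unadjusted p under 0.05 either. Among all 21780 tested genes, 8.6% were called in ZH11-KO1 vs ZH11 and 13.8% in ZH11-OE1 vs ZH11, where 10% of the tested genes were called lower. In ZH11-KO1 vs ZH11-OE1 none of the 5 was called, against 23.9% of all tested genes, although *OsSPL2* had an unadjusted p of 0.0187. With the read-based voom fit, likewise, none of the 5 passed in ZH11-KO1 vs ZH11 or between the lines. Library groups did not overlap, with ZH11-OE1 lower, for *OsSPL2* and *OsSPL4* in ZH11-OE1 vs ZH11, and the same held for 21.2% of all tested genes.

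The order of group means ZH11-KO1 over ZH11 over ZH11-OE1 was met by 3 of the 9 genes, namely *OsSPL13*, *OsSPL16* and *OsSPL18*, and by 24.3% of all tested genes. None of the other 6 genes met it. Separation of all libraries in that order was seen for *OsSPL13* and *OsSPL18*, and for 2.08% of all tested genes. Since these genes were known to differ when they were chosen, their count is a description. The other genes had several orders: *OsSPL2*, *OsSPL4* and *OsSPL7* were highest in ZH11 and lowest in ZH11-OE1, *OsSPL12* was highest in ZH11 and lowest in ZH11-KO1, *OsSPL3* was highest in ZH11-KO1 and lowest in ZH11, and *OsSPL14* was highest in ZH11-OE1 and lowest in ZH11. For *OsSPL3*, *OsSPL7*, *OsSPL12* and *OsSPL14* the libraries overlapped between every pair of genotypes. Between same-numbered ZH11-KO1 and ZH11 libraries, which were taken to pair, ZH11-KO1 was higher in 3 of 3 pairs for *OsSPL3* and *OsSPL14* and lower in 3 of 3 for *OsSPL4* and *OsSPL12*. The share of all tested genes that agreed in every pair is not given here, so these counts are a description only. With the replicate block in a fit of these 2 genotypes, none of these 4 passed in limma (adjusted p = 0.180 for *OsSPL3*, 0.265 for *OsSPL12*, 0.563 for *OsSPL14* and 0.769 for *OsSPL4*).

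The summed level of the 9 genes was 199.8 ± 10.6 FPKM in ZH11-KO1, 147.9 ± 13.8 FPKM in ZH11-OE1 and 174.3 ± 13.01 FPKM in ZH11 (SD, n = 3 each). The FPKM of all genes stood in the same order without overlap. They summed to between 679258 and 701261 in ZH11-KO1, between 635209 and 650991 in ZH11-OE1, and between 651917 and 676384 in ZH11. The part of this shift in the SPL sums was not tested. *OsSPL13*, *OsSPL16* and *OsSPL18* together gave 83.7, 95.7 and 87.7 FPKM in ZH11-KO1, 45.5, 43.8 and 50.5 FPKM in ZH11-OE1, and 60.9, 65.4 and 50.1 FPKM in ZH11. ZH11-KO1 was above all other libraries in this sum, while ZH11 replicate 3 lay just below ZH11-OE1 replicate 3. The other 6 genes summed to between 105.5 and 116.4 FPKM in ZH11-KO1, between 94.2 and 113.2 FPKM in ZH11-OE1 and between 110.3 and 123.1 FPKM in ZH11. These ranges overlap between every pair of genotypes. *OsSPL13* was a small part of the total, 3.96 ± 0.476% in ZH11-KO1, 0.327 ± 0.252% in ZH11-OE1 and 1.14 ± 0.372% in ZH11 (SD, n = 3 each). The means of *OsSPL16* and *OsSPL18* differed by more FPKM between ZH11-KO1 and ZH11 than that of *OsSPL13*, and in ZH11-OE1 the mean of *OsSPL2*, at 25.7 FPKM against 37.5 FPKM in ZH11, lay lower as well.

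**Figure D3:**
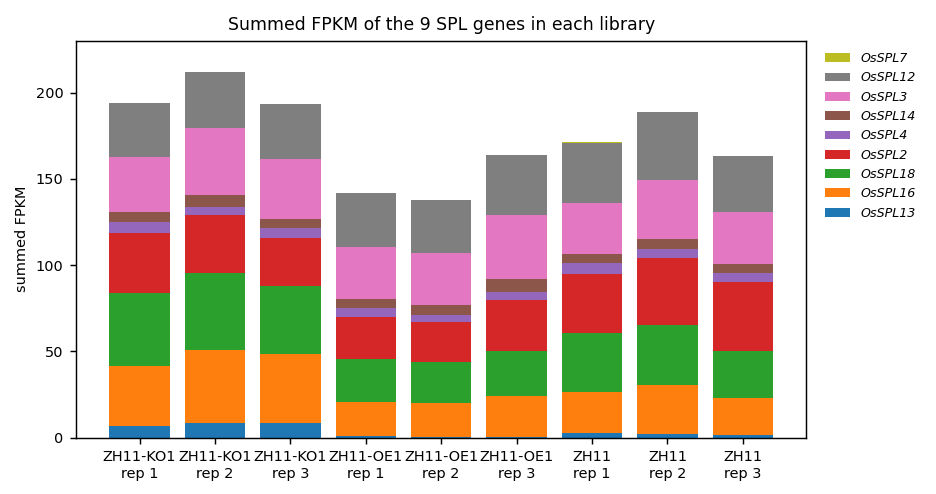
Summed FPKM of the 9 SPL genes (y axis, from 0) in each of the 9 libraries (x axis), stacked by gene from *OsSPL13* at the bottom to *OsSPL7* at the top. The stacks reach 193.3 to 212.0 FPKM in ZH11-KO1, 138.0 to 163.7 FPKM in ZH11-OE1 and 163.1 to 188.6 FPKM in ZH11, and the *OsSPL16* and *OsSPL18* layers are thickest in ZH11-KO1.

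Leaving out each of the 9 libraries in turn showed how far single libraries carried these values. For *OsSPL13* the log2 fold change stayed between 1.45 and 1.75 in ZH11-KO1 vs ZH11 and between -1.21 and -0.86 in ZH11-OE1 vs ZH11. *OsSPL16* stayed between 0.55 and 0.75 in ZH11-KO1 vs ZH11, and between -0.30 and -0.10 in ZH11-OE1 vs ZH11. *OsSPL18* stayed between 0.28 and 0.45 in ZH11-KO1 vs ZH11, and between -0.45 and -0.28 in ZH11-OE1 vs ZH11. The signs of these 3 genes were kept in the 9 refits, as were those of *OsSPL2* and *OsSPL12* in both comparisons. Since the 3 genes were selected on these libraries, this is a description. Some small differences turned: *OsSPL4* was above 0 in 2 of the 9 refits of ZH11-KO1 vs ZH11, and *OsSPL14* was below 0 in 1. *OsSPL3* was below 0 in 1 of the 9 refits of ZH11-OE1 vs ZH11. The order of means then took in *OsSPL4* without ZH11-KO1 replicate 2 or ZH11 replicate 1, *OsSPL3* without ZH11-OE1 replicate 3, and the barely detected *OsSPL7* without ZH11-KO1 replicate 2 or 3.

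**Figure D4:**
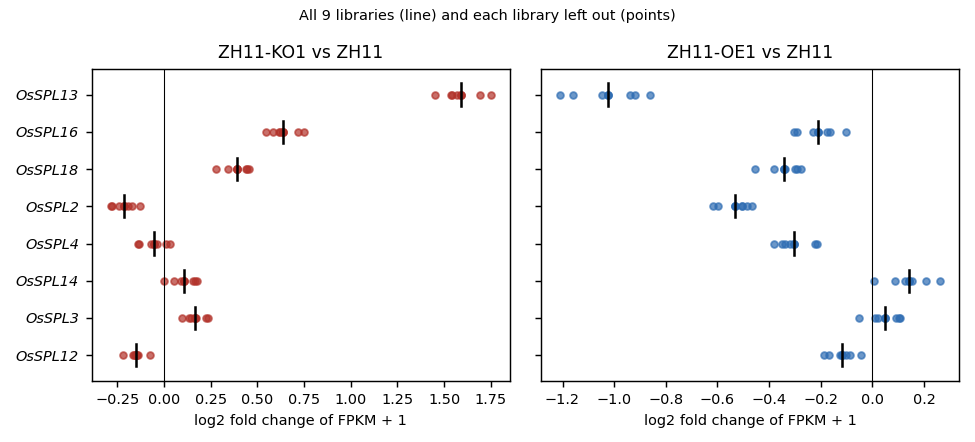
Log2 fold change on the FPKM + 1 scale (x axis, different ranges in the panels) of the 8 fitted SPL genes (y axis) with all 9 libraries (vertical bars) and with each library left out in turn (points), for ZH11-KO1 vs ZH11 on the left and ZH11-OE1 vs ZH11 on the right. The *OsSPL13* points lie from 1.45 to 1.75 on the left and from -1.21 to -0.86 on the right, while points of *OsSPL4* and *OsSPL14* cross 0 on the left.

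The rest of the SPL family was followed through 10 further identifiers, listed from general knowledge of the family and named by none of the tables used here. With a mean of at least 1 FPKM, 9 of the 10 were tested. One rose in both lines, Os06g0659100, with 6.74, 10.7 and 7.91 FPKM in ZH11-KO1, 7.80, 7.003 and 9.08 FPKM in ZH11-OE1, and 2.13, 5.08 and 2.48 FPKM in ZH11. Every library of either line was above every ZH11 library. Over all tested genes, ZH11-KO1 lay above ZH11 with no overlap in 14.2%, and the share for ZH11-OE1 is not given here. For Os06g0659100 the log2 difference was 1.201 (adjusted p = 0.0163 from limma, SE 0.24) in ZH11-KO1 vs ZH11 and 1.14 (adjusted p = 0.0140, SE 0.24) in ZH11-OE1 vs ZH11. Both comparisons share the ZH11 libraries, and between the lines the difference was 0.06 (adjusted p = 0.877 from limma, SE 0.24), whereas *OsSPL13* differed in opposite directions in the lines. The call in ZH11-KO1 vs ZH11 was lost without ZH11-KO1 replicate 2 (1.04, adjusted p = 0.0750 from limma) or ZH11 replicate 3 (1.09, adjusted p = 0.0640), and that in ZH11-OE1 vs ZH11 without ZH11 replicate 1 (0.96, adjusted p = 0.0532). The other 8 did not pass in any comparison, although with quantile normalization 1 of them was lower in ZH11-KO1 than in ZH11-OE1, and over all tested genes 5% rose in ZH11-KO1 vs ZH11 and 3.76% in ZH11-OE1 vs ZH11. The median log2 fold change of the 9 was 0.01 in ZH11-KO1 vs ZH11 and 0.01 in ZH11-OE1 vs ZH11, against -0.02 and -0.04 over all tested genes.

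A list of 17 identifiers for known partners and targets of SPL factors, and for the strigolactone and miR172 pathways beside them, was examined in the same way, again by identifier only. Of the 15 tested, none passed in ZH11-KO1 vs ZH11 with limma or with voom on the recovered reads, and 2 had an unadjusted p under 0.05. In ZH11-OE1 vs ZH11, 3 fell and none rose (limma), and 10% of all tested genes fell. Os03g0203200 had 64.2, 57.5 and 48.1 FPKM in ZH11-KO1, 44.8, 38.4 and 39.9 FPKM in ZH11-OE1, and 63.6, 53.5 and 64.6 FPKM in ZH11. It differed by -0.55 (adjusted p = 0.0158 from limma, SE 0.12) on the log2 scale in ZH11-OE1 vs ZH11. Os03g0707600 had 119.0, 118.9 and 101.0 FPKM in ZH11-KO1, 64.7, 68.2 and 74.3 FPKM in ZH11-OE1, and 112.5, 105.7 and 86.5 FPKM in ZH11. Here the log2 difference was -0.54 (adjusted p = 0.0135 from limma, SE 0.11) in ZH11-OE1 vs ZH11. Both were lower in every ZH11-OE1 library than in any other library. Over all tested genes, ZH11-OE1 lay below ZH11 with no overlap in 21.2% and below ZH11-KO1 in 25.1%. None of the 3 passed without ZH11-OE1 replicate 2 (adjusted p = 0.0659 for Os03g0203200 and 0.0521 for Os03g0707600, limma) or without ZH11 replicate 1 (0.0603 and 0.0524). In ZH11-KO1 vs ZH11-OE1, 5 of the 15 were higher and 1 lower, against 15.8% and 8.09% of all tested genes. This became 1 higher and none lower without ZH11-KO1 replicate 1 or 2, 2 and none without ZH11-OE1 replicate 3, and 3 and none without ZH11-OE1 replicate 2. With median-of-ratios factors, quantile normalization or voom, 4 were higher and 3 lower. The median log2 fold change of the list was -0.07 in ZH11-KO1 vs ZH11 and -0.04 in ZH11-OE1 vs ZH11, against the medians of all tested genes given above.

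Across the 9 libraries, the log2(FPKM + 1) values most like those of *OsSPL13* were those of Os01g0227500, with a Pearson r of 0.992. Its levels were 3.45 ± 0.520 FPKM in ZH11-KO1, 0.673 ± 0.182 FPKM in ZH11-OE1 and 1.38 ± 0.130 FPKM in ZH11 (SD, n = 3 each). Os03g0114100 came next with an r of 0.984, at 7.95 ± 1.19 FPKM in ZH11-KO1, 2.42 ± 0.220 FPKM in ZH11-OE1 and 4.24 ± 0.762 FPKM in ZH11 (SD, n = 3 each). Among the SPL genes, *OsSPL18* had an r of 0.943 with *OsSPL13* and rank 148 among the tested genes, and *OsSPL16* had an r of 0.914 and rank 448. The remaining fitted SPL genes lay between r = -0.18 for *OsSPL12* and r = 0.53 for *OsSPL4*. The libraries behind these values fall into 3 genotypes, so the coefficients largely restate the differences between group means and carry no test.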

How the data were processed

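RNA-seq libraries came from panicles of ZH11-KO1, ZH11-OE1 and ZH11, with 3 libraries per genotype mapped to their groups through the sample titles. The authors filtered reads, aligned these to the IRGSP-1.0 genome (HISAT2), counted them per gene (featureCounts) and deposited FPKM for each library. Strand use and the treatment of reads fitting several genes are not given in the sources read, which leaves antisense overlaps and paralogs uncertain. The authors used DESeq2 on counts, which was not repeated here.

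Whole reads were recovered from the FPKM steps for 100% of the 32208 genes with reads (tolerance 1e-05). No other libraries are in the table, and no value above 0 was identical between 2 libraries.

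A gene was kept if its FPKM averaged 1 or more over the 9 libraries, which left 21780. Their log2(FPKM + 1) values entered 1 limma 3.58.1 fit (R 4.3.3, group means, trended moderated spread, two-sided), p-values were adjusted over all kept genes after Benjamini and Hochberg, and the threshold was 0.05. The fit was run on simulated data with changes larger than those of the tested SPL genes, so the simulation does not bear on calls of their size. Tables and figures were made with Python 3.11.15, numpy 2.4.6, pandas 2.3.3, scipy 1.17.1 and matplotlib 3.10.9. The alternatives were another pseudocount, filter, scaling, spread model, set of libraries or replicate block, each library left out in turn and, chosen after seeing the data, limma's voom on the recovered reads and the block in a fit of 2 genotypes.

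The genes and lists were chosen with earlier results of these data known. Named genes were the 9 SPL genes, the family and partner identifiers, of which those that changed most clearly are printed up to a limit of 2 per direction, and the 2 genes most correlated with *OsSPL13*.

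Pairing by replicate number was checked through correlations, across genes, of deviations from group means. Same-numbered ZH11-KO1 and ZH11 libraries had r from 0.23 to 0.32 and were taken to pair, although no source names a shared batch. Those of ZH11-OE1 and ZH11 had r from -0.28 to 0.02 and were not. Libraries with different numbers had r from -0.26 to -0.02 between ZH11-KO1 and ZH11, and from -0.22 to 0.27 between ZH11-OE1 and ZH11. Values near those of the pairs therefore also arose without a shared number, and the pairing is uncertain.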

Additional observations from a re-analysis of the deposited data

How the results depend on the processing

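Among the 5 tested SPL genes and 3 comparisons, the calls held in every alternative except those of *OsSPL2* given with it above: ZH11-OE1 vs ZH11 missed the threshold without ZH11-OE1 replicate 2, and ZH11-KO1 vs ZH11-OE1 passed without ZH11-KO1 replicate 3 or ZH11-OE1 replicate 3. *OsSPL13* kept its direction throughout, with log2 fold changes of 1.97 in ZH11-KO1 vs ZH11, -1.98 in ZH11-OE1 vs ZH11 and 3.95 between the lines at a pseudocount of 0.1. With a minimum mean of 5 FPKM, 1 gene, *OsSPL18*, separated in the full order, because *OsSPL13* was then not tested; with single libraries left out, 2 or 3 genes did. Genes changed in ZH11-KO1 vs ZH11 numbered 1872, against 1202 with no filter and 1017 with only the 2 groups compared, and 401 to 1991 with 1 library left out. The counts were 2999 and, with 1 library left out, 1089 to 3233 in ZH11-OE1 vs ZH11, and 5198 and 2338 to 5642 in ZH11-KO1 vs ZH11-OE1. The causes of these shifts in counts were not tested.

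Scaling moved the balance of directions. In ZH11-OE1 vs ZH11, 820 genes were higher and 2179 lower, against 1222 and 1767 with median-of-ratios factors, 1157 and 1713 with quantile normalization and 1471 and 1837 with voom. In ZH11-KO1 vs ZH11-OE1, 3437 were higher and 1761 lower, against 3158 and 2490 with median-of-ratios factors, 2812 and 2966 with quantile normalization and 3266 and 2754 with voom. With the replicate block in the fit of all 9 libraries, 1807 genes changed in ZH11-KO1 vs ZH11, and 2766 with the block in a fit of those 2 groups. The block changed no call of the tested SPL genes. Depth limits *OsSPL7* in every library and *OsSPL13* in ZH11-OE1.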
